A study of Mus musculus with 30 samples.

Results

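The translation initiation and elongation factors were examined in C2C12 myotubes, the fused muscle cells that form when the C2C12 mouse myoblast line is differentiated. The genes were taken as every protein coding gene of the count table whose symbol begins with Eif or Eef, leaving out the Eif2ak and Eif4ebp genes, which encode kinases of eIF2 and binding proteins of eIF4E. This gave 62 genes of the 55487 in the table, and 60 of them had enough counts to be tested, among 15907 tested genes in all. Eif2s3y, the Y-linked copy of the eIF2 gamma subunit, had 0 counts in all 30 libraries, which allows a level of up to 0.153 to 0.235 CPM (counts scaled to library size) depending on the library (3 counts, counting error only). Eif4e1b, a cap-binding protein best known from oocytes, had 18 counts over the 30 libraries.

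Myotubes had been differentiated for 4 days in low glucose DMEM with 2% horse serum and were then kept for another 4 days in 1 of 5 media. Control myotubes stayed in 2% horse serum (2% HS). The other groups were serum-deprived and received nothing more (SD), 0.1 µM metformin (MET), 0.5 µM leucine (LEU) or both agents at these doses (MET+LEU). Each group had 6 libraries of ribosomal RNA-depleted total RNA, all from this clonal line. The libraries held 12784960 to 19604103 counts each. In MET+LEU replicate 6 nuclear ribosomal RNA took 5.85% of the counts and mitochondrial ribosomal RNA 7.64%. The other 29 libraries reached at most 1.96% and 0.760%, in MET+LEU replicates 4 and 1. Many results for MET+LEU, though not all, are therefore also given without replicate 6, and the part of its ribosomal RNA in them was not tested. Mitochondrial ribosomal RNA took 0.649% to 0.760% in MET+LEU replicates 1 to 5, beside 0.219% to 0.306% in 2% HS and 0.281% to 0.367% in SD. It took 0.244% to 0.705% in MET and 0.501% to 0.710% in LEU. Leaving out replicate 6 therefore does not remove the difference from SD, and its part in the results was not tested.

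Myotube markers were abundant in every group. The summed level of 10 of them (Myog, Ckm, Acta1, Actn2, Myh1, Myh3, Myh8, Tnnt3, Ttn and Des) was 40715 to 43592 CPM in 2% HS, 33323 to 36014 in SD, 30069.9 to 33899 in MET, 37125 to 38968 in LEU and 33038 to 42337 in MET+LEU. Ttn alone made up most of this sum, since CPM does not correct for gene length. Its mean was 30972 CPM of a summed mean of 42321 in 2% HS, and 24592 of 35147 in SD. Markers of undifferentiated or dividing myoblasts (Pax7, Myf5, Mki67, Top2a, Ccnb1 and Cdk1) were also present, at a summed 356 to 383 CPM in 2% HS, 316 to 357 in SD, 291 to 358 in MET, 292 to 330 in LEU and 274 to 299.8 in MET+LEU. Of these 6 genes 4 fell in MET+LEU vs. SD and none rose, while 4 of the 10 myotube markers rose and none fell. Here a gene counts at an adjusted p under 0.05 in the edgeR test named below, where 10.6% of all tested genes rose and 7.8% fell. These marker counts were not repeated without MET+LEU replicate 6. In MET+LEU the highest library was far above the median for Myh1 (3132 against 2251 CPM), Myh3 (2050 against 1307), Myh8 (1125 against 761) and Tnnt3 (1243 against 743). In SD vs. 2% HS, 1 myotube marker rose and 4 fell, and 1 of the myoblast markers fell, beside 13.9% of all tested genes up and 13.9% down. The part of these shifts in the results for the translation factors was not tested, and in such bulk RNA fewer cells of a type and less RNA per cell cannot be told apart. Markers of endothelium, blood cells and liver (Pecam1, Cdh5, Ptprc, Adgre1 and Alb) summed to at most 0.770 CPM in any library, and Adgre1 and Alb were at 0 in every library.

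Translation of an mRNA starts when eIF2, bound to GTP, brings the initiator tRNA to the small ribosomal subunit, which eIF1, eIF1A and eIF3 hold open for scanning. The eIF4 factors bind the cap and unwind the leader, eIF5 and eIF5B complete start codon recognition and the joining of the large subunit, and eIF2B recharges eIF2 with GTP. In elongation, eEF1A delivers each aminoacyl-tRNA, the eEF1B complex recharges eEF1A, eEF2 moves the ribosome along the mRNA, and eIF5A helps peptide bond formation at difficult stretches. In skeletal muscle these factors are known as end points of growth signalling, since serum factors and leucine act on them through mTORC1, mostly by changing phosphorylation, which RNA counts do not measure.

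The 62 genes together took 1.45% to 1.58% of the counts of a library in 2% HS, SD, MET and LEU and 1.23% to 1.57% in MET+LEU. The 1.23% was that of MET+LEU replicate 6, and replicates 1 to 5 ran from 1.44% to 1.57%. Levels were compared between genes in TPM, counts divided by the exonic length of each gene and scaled to the same sum in every library. Eef1a1, the main eEF1A gene, had a mean level of 5718 TPM over the 30 libraries, and Eef2, the only eEF2 gene, 2068 TPM. Behind them came Eif5a with 523 TPM, Eif1, which guards start codon choice, with 388 TPM, Eif4g2, a scaffold that acts without cap-binding eIF4E, with 373 TPM, and Eif4b, a helper of the eIF4A helicase, with 342 TPM. The adult muscle form Eef1a2 reached 11.7 TPM, far below Eef1a1. Eif5a2, the less abundant eIF5A gene, reached 5.61 TPM. The lowest tested member was Eef1akmt3, a methyltransferase of eEF1A, with 0.889 TPM.

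**Figure D1:**
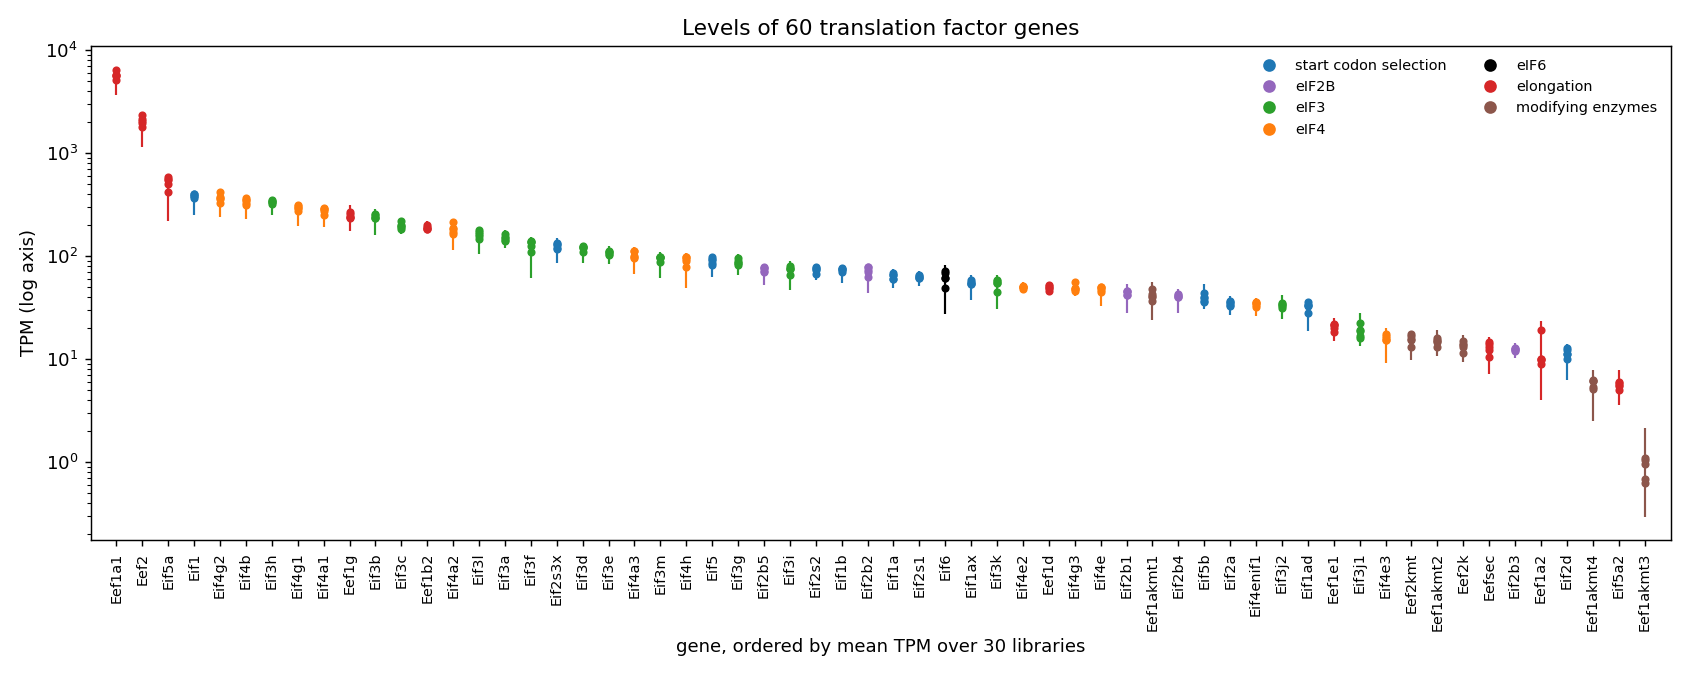
Level of the 60 tested translation factor genes in TPM on a log axis, ordered by the mean over 30 libraries and coloured by role, where each of 5 points is a group mean of 6 libraries and the line spans the lowest and highest library. Eef1a1 (mean 5718 TPM) and Eef2 (2068 TPM) stand above all other members, and Eef1akmt3 (0.889 TPM) lies lowest.

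With counts scaled between libraries by the trimmed mean of M values (TMM), serum deprivation moved 13 of these genes, in both directions. The combined treatment moved 19, most of them up. In SD vs. 2% HS, 8 of the 60 genes were upregulated and 5 downregulated, 13.3% and 8.33% of them, where 13.9% of all 15907 tested genes went up and 13.9% went down (edgeR quasi-likelihood test, Benjamini-Hochberg adjusted p under 0.05 over all tested genes). In MET+LEU vs. SD, 16 were upregulated and 3 downregulated, 26.7% and 5% of the genes, beside 10.6% up and 7.8% down among all tested genes. Their median log2 fold change was 0.030 in the first comparison, 0.062 in the second, beside 0.0028 and -0.0050 over all tested genes. Most changes were small, and only Eef1a2 in the first comparison and Eif3j1 and Eif5b in the second moved by more than 0.5 on the log2 scale among the called genes. Without MET+LEU replicate 6, which enters the shared estimate of the spread, the first comparison gave 9 up and 8 down, the 13 and also Eef2, Eif2s2, Eif3c and Eif4h. The second comparison then gave 15 up and 2 down, and all 17 had been called with replicate 6 included. In that fit 30.3% and 13.5% of all tested genes were called in either direction in the first and second comparison. When only the SD and MET+LEU libraries entered the fit, 8 were called up and 1 down. The share of all tested genes called in that fit is not given here, so the drop need not concern these genes in particular.

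**Figure D2:**
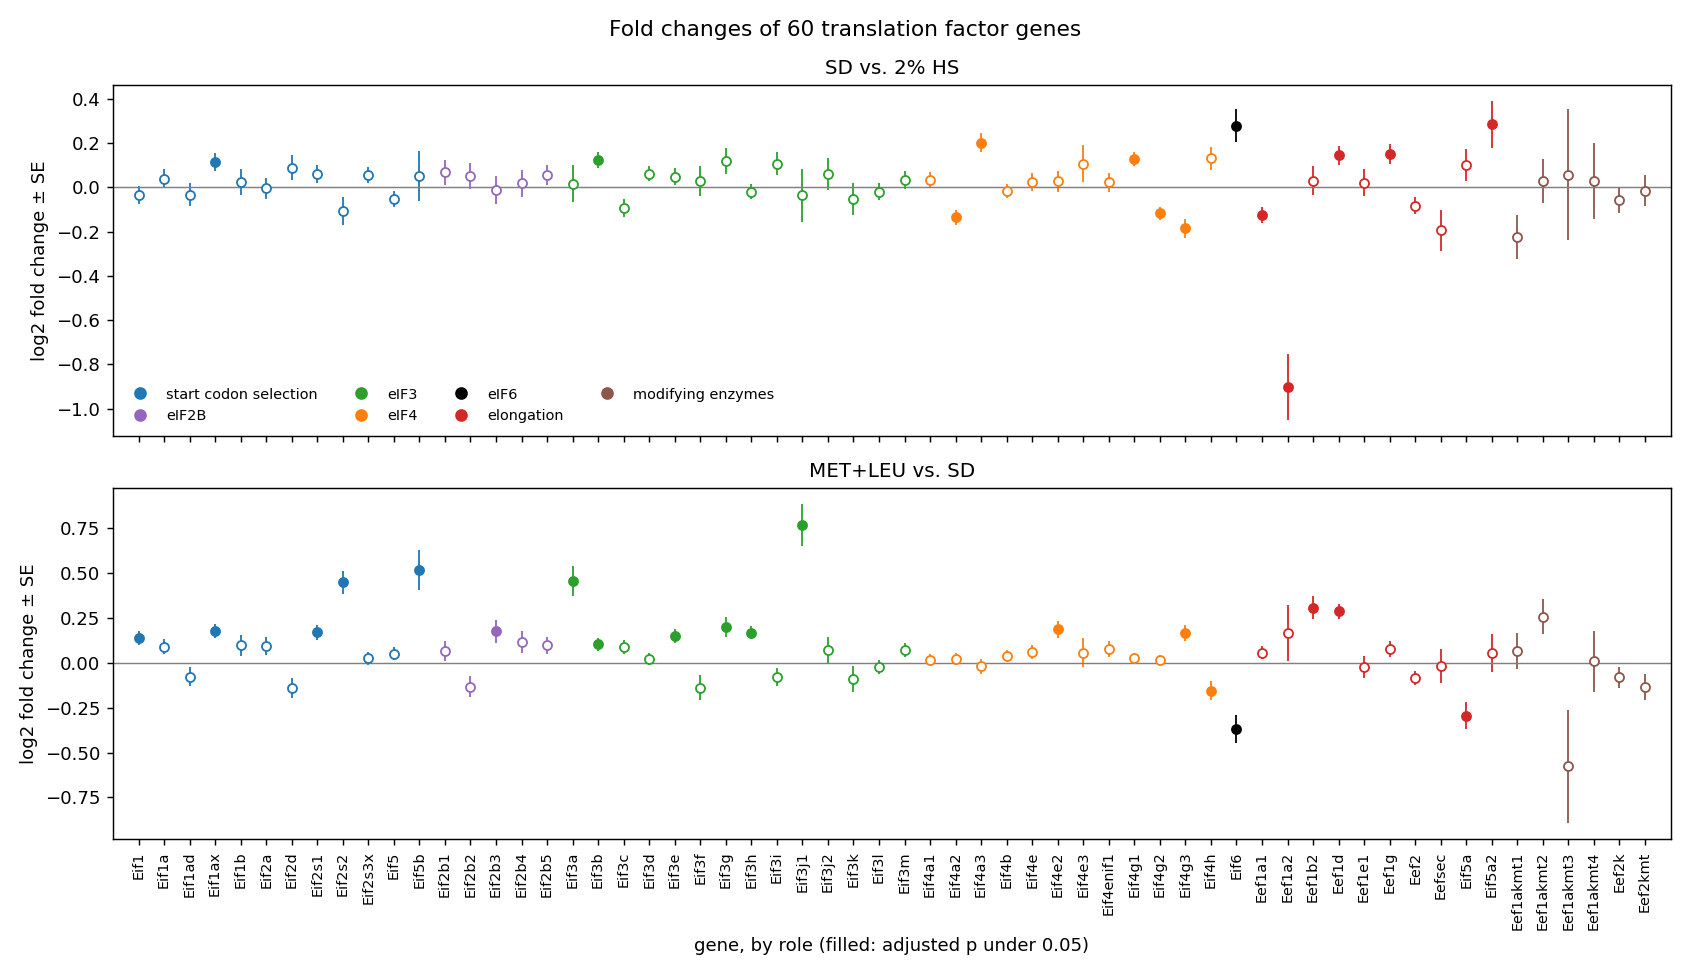
Log2 fold change ± SE of the 60 tested genes in SD vs. 2% HS (top) and MET+LEU vs. SD (bottom), 6 libraries per group, ordered and coloured by role, with filled points for an adjusted p under 0.05. Eef1a2 lies lowest at -0.90 in the top panel, and in the bottom panel Eif3j1 lies highest at 0.77.

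Both comparisons use the same SD libraries, so a low or high SD library pushes a gene in opposite directions in them. Eef1d, Eif1ax and Eif3b were called up in both, Eif6 was called up and then down, and Eif4g3 was called down and then up. Of the others, 8 were called in SD vs. 2% HS alone, 14 in MET+LEU vs. SD alone and 33 in neither.

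The factors that bring the initiator tRNA, choose the start codon and join the subunits gave 1 call with serum deprivation and 5 with MET+LEU. Of the 12 tested members 1 was up and none down in SD vs. 2% HS, and 5 were up and none down in MET+LEU vs. SD, with a median log2 fold change of 0.033 and 0.095. The 5 were Eif2s2, Eif5b, Eif1ax, Eif2s1 and Eif1.

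Eif2s2 (chr2:154871410-154892935, minus strand, GRCm38) encodes the beta subunit of eIF2, which binds eIF5 and eIF2B. It stood at 139 to 158 CPM in 2% HS (median 150.0), 131 to 149 in SD (median 139), 152 to 171 in MET (median 158), 153 to 166 in LEU (median 161) and 171 to 256 in MET+LEU (median 179), where CPM are scaled between libraries by the trimmed mean of M values (TMM) here and below. The MET+LEU libraries did not overlap with SD, and MET+LEU replicate 6 was far above the rest of its group. Eif2s2 was upregulated in MET+LEU vs. SD (log2 fold change 0.45 ± 0.064, adjusted p = 1.51e-05, where ± gives the standard error here and below), 1.36-fold. Without MET+LEU replicate 6 the value was a log2 fold change of 0.34 ± 0.037 (adjusted p = 3.87e-10). The gene a (agouti) is annotated on the opposite strand across the same interval.

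Eif2s1 encodes the alpha subunit of eIF2, whose phosphorylation under stress lowers initiation throughout the cell. Its level was 88.2 to 97.5 CPM in 2% HS (median 91.5), 84.6 to 101 in SD (median 97.9), 97.0 to 105 in MET (median 101), 92.1 to 100.2 in LEU (median 98.2) and 97.5 to 121 in MET+LEU (median 108). In 5 of the 6 MET+LEU libraries it exceeded every SD library. It was upregulated in MET+LEU vs. SD (log2 fold change 0.17 ± 0.042, adjusted p = 0.00292), a call that ended with an offset for the GC content of each gene (adjusted p = 0.0675). Eif1ax, an eIF1A gene of the X chromosome, ran at 76.3 to 87.0 CPM in 2% HS (median 83.6), 83.4 to 96.0 in SD (median 89.3), 87.9 to 100.2 in MET (median 97.8), 87.2 to 96.5 in LEU (median 89.5) and 95.7 to 108 in MET+LEU (median 101). It was called up in SD vs. 2% HS (log2 fold change 0.12 ± 0.041, adjusted p = 0.0314), a call that was lost without 1 of 5 libraries (2% HS replicates 2, 5 or 6, or SD replicates 3 or 6). Against SD, MET+LEU raised it again (log2 fold change 0.18 ± 0.041, adjusted p = 0.00157), although not with the GC offset (adjusted p = 0.148).

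Eif5b (chr1:37998010-38055579, plus strand), the GTPase that joins the large subunit, was chosen for its values after they were seen. Its level was 98.5 to 108 CPM in 2% HS (median 104), 96.4 to 121 in SD (median 107), 109 to 131 in MET (median 121), 117 to 126 in LEU (median 123) and 129.7 to 251 in MET+LEU (median 137), and MET+LEU replicate 6 held the 251 CPM while the other libraries of this group reached at most 140.1. No MET+LEU library overlapped with SD. The gene was upregulated in MET+LEU vs. SD (log2 fold change 0.52 ± 0.11, adjusted p = 0.00178) and stayed so without replicate 6, with a log2 fold change of 0.33 ± 0.045 (adjusted p = 5.40e-07), but not when only the SD and MET+LEU libraries entered the fit (adjusted p = 0.0672). Eif1 rose by less (log2 fold change 0.14 ± 0.040, adjusted p = 0.0103), and its call was lost without SD replicate 4 (adjusted p = 0.0591). The remaining 7 members passed the test in neither direction in MET+LEU vs. SD, with log2 fold changes from -0.14 for Eif2d to 0.096 for Eif1b.

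Of the 5 subunits of eIF2B, the exchange factor that leucine and insulin are known to act on in muscle, none was called in SD vs. 2% HS, with log2 fold changes from -0.011 to 0.069. Eif2b3, the gamma subunit, was called up in MET+LEU vs. SD (log2 fold change 0.18 ± 0.063, adjusted p = 0.0457), close to the threshold, and the call was lost in 24 of the 30 fits that left out 1 library. The catalytic subunit Eif2b5 showed a log2 fold change of 0.097 ± 0.047 (adjusted p = 0.143) in this comparison.

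The eIF3 scaffold, which bridges the small subunit and the cap complex, held the member with the largest rise in MET+LEU vs. SD, Eif3j1. Of its 14 members 1 was up and none down in SD vs. 2% HS, and 6 were up and none down in MET+LEU vs. SD, with a median log2 fold change of 0.032 and 0.078. The 6 were Eif3j1, Eif3a, Eif3g, Eif3h, Eif3e and Eif3b.

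Eif3j1 (chr2:122028546-122056598, plus strand) encodes the loosely bound j subunit, which sits near the decoding centre. It stood at 27.2 to 31.3 CPM in 2% HS (median 28.7), 25.8 to 30.5 in SD (median 28.1), 28.1 to 38.0 in MET (median 34.2), 32.6 to 37.3 in LEU (median 35.6) and 39.1 to 77.6 in MET+LEU (median 42.8). The SD and 2% HS libraries overlapped, all LEU libraries and 5 of 6 MET libraries lay above SD, and all MET+LEU libraries lay above those of every other group. Eif3j1 was upregulated in MET+LEU vs. SD (log2 fold change 0.77 ± 0.12, adjusted p = 4.16e-05), 1.70-fold, the largest change of the family in this comparison, and the value without MET+LEU replicate 6 was a log2 fold change of 0.59 ± 0.060 (adjusted p = 9.66e-11). Over the 786 aligned coding bases the gene is identical to Eif3j2, so how reads were shared between them is uncertain. Eif3j2 showed a log2 fold change of 0.069 ± 0.072 (adjusted p = 0.557) in the same comparison. The 3' end of Eif3j1 also overlaps Spg11 on the opposite strand.

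Eif3a (chr19:60761117-60790658, minus strand), the largest eIF3 subunit, ran at 355 to 388 CPM in 2% HS (median 367), 339 to 399 in SD (median 384), 395 to 434 in MET (median 414), 409 to 430.0 in LEU (median 419) and 451 to 757 in MET+LEU (median 469). MET+LEU replicate 6 had the 757 CPM, while the other 5 libraries of its group lay between 451 and 473, still above every SD library. It was upregulated in MET+LEU vs. SD (log2 fold change 0.46 ± 0.085, adjusted p = 4.16e-04), and without replicate 6 it showed a log2 fold change of 0.31 ± 0.035 (adjusted p = 3.15e-09). Small nucleolar RNA genes lie within it on the same strand. Eif3h, a subunit outside the yeast core, moved less, with 156 to 170.2 CPM in 2% HS (median 168), 152 to 175 in SD (median 162), 164 to 176 in MET (median 174), 165 to 174 in LEU (median 172) and 175 to 194 in MET+LEU (median 181) and 5 of 6 MET+LEU libraries above every SD library (log2 fold change 0.17 ± 0.035, adjusted p = 4.59e-04).

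Among the other members, Eif3g, an RNA-binding subunit of the scanning complex, showed a log2 fold change of 0.20 ± 0.057 (adjusted p = 0.011) and lost its call without SD replicate 2, and Eif3e showed a log2 fold change of 0.15 ± 0.038 (adjusted p = 0.00423) and lost it with the GC offset (adjusted p = 0.423). Eif3b, a core subunit, was the only eIF3 gene called in SD vs. 2% HS (log2 fold change 0.12 ± 0.036, adjusted p = 0.00721) and was called in MET+LEU vs. SD close to the threshold (log2 fold change 0.10 ± 0.036, adjusted p = 0.0383), a call lost in 23 of the 30 fits that left out 1 library. The lowest value in MET+LEU vs. SD was that of Eif3f, a subunit known from muscle atrophy, at a log2 fold change of -0.14 ± 0.068 (adjusted p = 0.161).

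In the eIF4 group serum deprivation moved genes in both directions. Of its 12 tested members 2 were up and 3 down in SD vs. 2% HS, against 2 up and 1 down in MET+LEU vs. SD. The 3 scaffold genes went different ways. Eif4g1, the main scaffold of cap-dependent initiation, ran at 617 to 659 CPM in 2% HS (median 642), 652 to 729 in SD (median 701), 676 to 702 in MET (median 691), 668 to 690.1 in LEU (median 676) and 691 to 737 in MET+LEU (median 707) and was upregulated in SD vs. 2% HS (log2 fold change 0.13 ± 0.030, adjusted p = 7.24e-04). Eif4g3, its paralog with 65.1% identical aligned coding bases, ran at 181 to 186 CPM in 2% HS (median 184), 155 to 170.1 in SD (median 162), 157 to 178 in MET (median 159.5), 171 to 183 in LEU (median 174) and 162 to 218 in MET+LEU (median 179). All SD libraries lay below all 2% HS libraries for this gene (log2 fold change -0.18 ± 0.044, adjusted p = 9.09e-04), and 4 of 6 MET+LEU libraries lay above every SD library (log2 fold change 0.16 ± 0.044, adjusted p = 0.00558, and log2 fold change 0.10 ± 0.035, adjusted p = 0.046 without MET+LEU replicate 6, which held the 218 CPM). In MET+LEU vs. 2% HS it was not called (log2 fold change -0.019 ± 0.043, adjusted p = 0.755), but without MET+LEU replicate 6 it was called down (log2 fold change -0.087 ± 0.035, adjusted p = 0.044). Eif4g2 ran at 1199 to 1297 CPM in 2% HS (median 1283), 1144 to 1225 in SD (median 1162), 1133 to 1192 in MET (median 1167), 1131 to 1180.1 in LEU (median 1155) and 1155 to 1237 in MET+LEU (median 1167) and was downregulated in SD vs. 2% HS (log2 fold change -0.12 ± 0.030, adjusted p = 0.00212), with 5 of 6 SD libraries below every 2% HS library.

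The helicase genes differed as well. Eif4a3, which encodes the eIF4A-like subunit of the exon junction complex, ran at 59.3 to 68.6 CPM in 2% HS (median 63.1), 68.7 to 77.7 in SD (median 72.3), 69.3 to 75.9 in MET (median 73.8), 64.3 to 69.5 in LEU (median 67.3) and 68.9 to 78.8 in MET+LEU (median 70.5). All SD libraries were above all 2% HS libraries (log2 fold change 0.20 ± 0.043, adjusted p = 2.10e-04), and MET+LEU vs. SD gave a log2 fold change of -0.019 ± 0.042 (adjusted p = 0.807). Eif4a2, a cap-complex helicase linked to repression by miRNAs, ran at 327 to 347 CPM in 2% HS (median 337), 298 to 317 in SD (median 305), 280.0 to 334 in MET (median 298), 287 to 295 in LEU (median 291) and 293 to 331 in MET+LEU (median 307). All SD libraries were below all 2% HS libraries (log2 fold change -0.14 ± 0.034, adjusted p = 0.00184), a call that ended with the GC offset (adjusted p = 0.115). The more abundant Eif4a1 was called in neither comparison (log2 fold changes 0.034 and 0.014).

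Eif4e, the cap-binding protein that the Eif4ebp products hold back, had overlapping libraries in all groups, at 84.1 to 94.8 CPM in 2% HS (median 89.2), 82.9 to 99.6 in SD (median 92.1), 87.9 to 94.6 in MET (median 91.4), 87.0 to 92.2 in LEU (median 89.8) and 87.8 to 100.0 in MET+LEU (median 94.7). It showed a log2 fold change of 0.026 ± 0.040 (adjusted p = 0.684) in SD vs. 2% HS and a log2 fold change of 0.058 ± 0.040 (adjusted p = 0.339) in MET+LEU vs. SD, where an interval of 2 SE on either side ran from -0.022 to 0.14. Eif4e2, a cap-binding homolog that represses mRNAs, was up in MET+LEU vs. SD (log2 fold change 0.19 ± 0.047, adjusted p = 0.00344, and log2 fold change 0.11 ± 0.035, adjusted p = 0.0291 without MET+LEU replicate 6), a call that was lost when only these 2 groups entered the fit. Eif4h, which stimulates the eIF4A helicase, was down (log2 fold change -0.15 ± 0.052, adjusted p = 0.0333). The call of Eif4h was lost without SD replicate 1 or 3 or MET+LEU replicate 5 or 6, and was lost with the GC offset.

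Eif6 (chr2:155819832-155826925, minus strand) encodes the factor that keeps the large subunit from joining too early and is also needed to build it. It stood at 45.2 to 53.4 CPM in 2% HS (median 49.8), 51.6 to 73.9 in SD (median 58.2), 53.7 to 60.8 in MET (median 57.3), 49.9 to 55.2 in LEU (median 51.5) and 35.7 to 54.2 in MET+LEU (median 47.0). In 5 of 6 SD libraries it was above every 2% HS library (log2 fold change 0.28 ± 0.075, adjusted p = 0.00484), and in 5 of 6 MET+LEU libraries it was below every SD library (log2 fold change -0.37 ± 0.076, adjusted p = 7.40e-04). The fall in MET+LEU, to 0.774 of the SD level, was a log2 fold change of -0.31 ± 0.066 (adjusted p = 8.70e-04) without MET+LEU replicate 6, which was the lowest library at 35.7 CPM. In MET+LEU vs. 2% HS Eif6 was not called, with a log2 fold change of -0.090 ± 0.077 (adjusted p = 0.367).

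**Figure D3:**
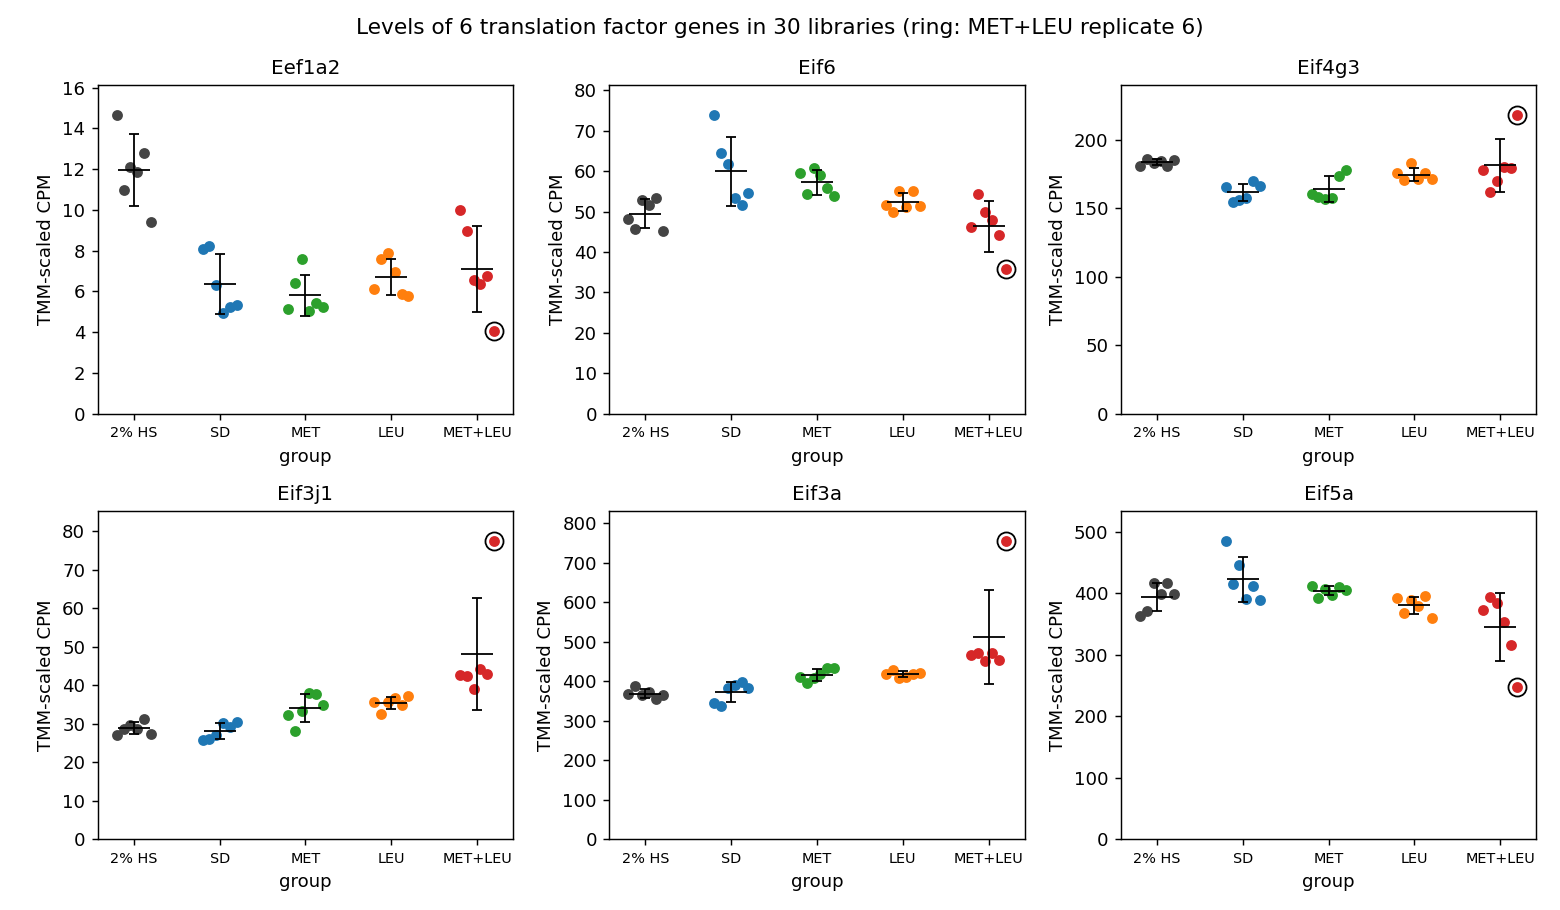
TMM-scaled CPM of Eef1a2, Eif6, Eif4g3, Eif3j1, Eif3a and Eif5a in each of the 30 libraries, by group, with the group mean and SD over 6 libraries in black and a ring around MET+LEU replicate 6. Eef1a2 is at 9.41 to 14.7 CPM in 2% HS and at most 8.24 in SD, and the ringed library is highest for Eif3j1, Eif3a and Eif4g3 and lowest in its group for Eif6, Eif5a and Eef1a2.

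The elongation group held the largest fall with serum deprivation. Of its 10 members 3 were up and 2 down in SD vs. 2% HS, and 2 were up and 1 down in MET+LEU vs. SD. The eEF1A pair is shown by the first 90 bases of each coding sequence (GENCODE M21 on GRCm38, both minus strand, within an exon), because counts of close paralogs depend on how well reads can tell them apart. Eef1a1 lies at chr9:78480565-78480654 and Eef1a2 at chr2:181155317-181155406, and capitals mark the 15 bases that differ.
Eef1a1: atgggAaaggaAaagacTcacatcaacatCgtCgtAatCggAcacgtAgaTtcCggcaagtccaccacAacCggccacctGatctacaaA
Eef1a2: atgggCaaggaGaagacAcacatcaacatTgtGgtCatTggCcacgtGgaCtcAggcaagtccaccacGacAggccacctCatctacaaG
Over the whole coding sequence 80.1% of aligned bases were identical, so that reads of 150 bases would usually cross several differences.

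Eef1a2 (chr2:181147653-181157014, minus strand) is the form that replaces Eef1a1 in mature muscle and neurons. It stood at 9.41 to 14.7 CPM in 2% HS (median 11.96), 4.93 to 8.24 in SD (median 5.84), 5.03 to 7.58 in MET (median 5.34), 5.80 to 7.87 in LEU (median 6.55) and 4.05 to 10.0 in MET+LEU (median 6.64). All 6 SD libraries lay below all 6 2% HS libraries, and the serum-free groups overlapped each other. Eef1a2 fell to 0.535 of the 2% HS level in SD (log2 fold change -0.90 ± 0.15, adjusted p = 8.47e-06), the largest change of the family in this comparison. MET+LEU vs. SD gave a log2 fold change of 0.17 ± 0.16 (adjusted p = 0.507), and in MET+LEU vs. 2% HS it was still lower (log2 fold change -0.73 ± 0.15, adjusted p = 9.60e-05). Its counts ran from 50 to 234 per library. Eef1a1 fell far less in SD vs. 2% HS, with 4656 to 4811 CPM in 2% HS (median 4728), 4054 to 4705 in SD (median 4326), 4121 to 4544 in MET (median 4224), 4296 to 4667 in LEU (median 4536) and 4316 to 4904 in MET+LEU (median 4446), 5 of 6 SD libraries below every 2% HS library and a log2 fold change of -0.12 ± 0.037 (adjusted p = 0.00888).

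The eEF1B subunits, which recharge eEF1A with GTP, were higher in SD or with MET+LEU. Eef1d, the delta subunit, ran at 81.6 to 93.3 CPM in 2% HS (median 87.1), 88.3 to 102 in SD (median 98.8), 103 to 111 in MET (median 105), 96.3 to 107 in LEU (median 101) and 109 to 133 in MET+LEU (median 117). It was up in SD vs. 2% HS (log2 fold change 0.15 ± 0.043, adjusted p = 0.00757) and up in MET+LEU vs. SD, where all 6 libraries exceeded all SD libraries (log2 fold change 0.29 ± 0.042, adjusted p = 5.22e-06). The latter was a log2 fold change of 0.25 ± 0.040 (adjusted p = 9.26e-06) without MET+LEU replicate 6. Eef1b2, the alpha subunit, ran at 128 to 148 CPM in 2% HS (median 138), 128 to 163 in SD (median 139.8), 144 to 170.3 in MET (median 159), 146 to 159.7 in LEU (median 149.7) and 152 to 219 in MET+LEU (median 166) and was upregulated in MET+LEU vs. SD (log2 fold change 0.31 ± 0.065, adjusted p = 0.00115, and log2 fold change 0.23 ± 0.049, adjusted p = 0.0012 without MET+LEU replicate 6). Only 3 of its MET+LEU libraries were above every SD library. Eef1g, the gamma subunit, ran at 178 to 194 CPM in 2% HS (median 184), 182 to 233 in SD (median 206), 198 to 233 in MET (median 213), 189 to 212 in LEU (median 200.02) and 204 to 229 in MET+LEU (median 215) and was up in SD vs. 2% HS (log2 fold change 0.15 ± 0.043, adjusted p = 0.00634), with a log2 fold change of 0.078 ± 0.043 (adjusted p = 0.218) in MET+LEU vs. SD. The annotated interval of Eef1d overlaps that of Naprt on the same strand, and Eef1b2 holds small nucleolar RNA genes.

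Eef2 was not called in either comparison with all libraries. It ran at 2229 to 2382 CPM in 2% HS (median 2345), 2044 to 2437 in SD (median 2153), 2053 to 2145 in MET (median 2118), 2014 to 2114 in LEU (median 2074) and 1824 to 2278 in MET+LEU (median 2078), with a log2 fold change of -0.082 ± 0.039 (adjusted p = 0.116) in SD vs. 2% HS and a log2 fold change of -0.086 ± 0.039 (adjusted p = 0.124) in MET+LEU vs. SD. It was called down in SD vs. 2% HS without MET+LEU replicate 6 (log2 fold change -0.086 ± 0.032, adjusted p = 0.0338), without SD replicate 1, with limma-voom and with the GC offset, and in MET+LEU vs. SD without SD replicate 5 or MET+LEU replicate 2. Against 2% HS the MET+LEU libraries were lower (log2 fold change -0.17 ± 0.039, adjusted p = 5.06e-04).

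The 2 eIF5A genes encode proteins that carry hypusine, a lysine-derived residue made on eIF5A. The 39 coding bases around the codon of that lysine, codon 50, are shown with capitals at the 5 bases that differ, from chr11:69918019-69919186 (Eif5a, minus strand) and chr3:28782181-28782730 (Eif5a2, plus strand), spans that each include an intron left out here (GENCODE M21, GRCm38).
Eif5a: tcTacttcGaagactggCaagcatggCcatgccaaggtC
Eif5a2: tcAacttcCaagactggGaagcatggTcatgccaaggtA
Over the whole coding sequence 73.2% of aligned bases were identical. Eif5a ran at 364 to 416 CPM in 2% HS (median 398), 389 to 486 in SD (median 413), 393 to 412 in MET (median 406), 361 to 395 in LEU (median 384) and 247 to 394 in MET+LEU (median 364). In 5 of 6 MET+LEU libraries it was below every SD library, and replicate 6 was lowest at 247 CPM. Eif5a was downregulated in MET+LEU vs. SD (log2 fold change -0.29 ± 0.074, adjusted p = 0.00592), with a log2 fold change of -0.22 ± 0.047 (adjusted p = 0.00113) without replicate 6, but did not pass when only the SD and MET+LEU libraries entered the fit (adjusted p = 0.0944). Eif5a2 ran at 6.00 to 8.41 CPM in 2% HS (median 7.84), 8.12 to 11.4 in SD (median 8.82), 7.43 to 10.0 in MET (median 8.68), 7.46 to 11.2 in LEU (median 9.46) and 7.74 to 11.1 in MET+LEU (median 9.82) and was called up in SD vs. 2% HS (log2 fold change 0.29 ± 0.11, adjusted p = 0.0383). That call was lost without 2% HS replicate 3, 4 or 5 or SD replicate 3 or 5.

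None of the 6 enzymes that modify the elongation factors was called in either comparison. Eef2k, the kinase that halts eEF2, ran at 29.9 to 36.9 CPM in 2% HS (median 32.1), 29.5 to 35.3 in SD (median 31.1), 30.5 to 33.2 in MET (median 31.1), 28.9 to 34.0 in LEU (median 30.3) and 27.8 to 33.0 in MET+LEU (median 30.6), with a log2 fold change of -0.058 ± 0.058 (adjusted p = 0.498) in SD vs. 2% HS and a log2 fold change of -0.081 ± 0.058 (adjusted p = 0.368) in MET+LEU vs. SD, and its libraries overlapped between all groups.

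MET and LEU alone gave no member past the threshold. In MET vs. SD none of the 60 was called by edgeR or DESeq2, beside 0.157% of all tested genes by edgeR. By edgeR 10 members (16.7%) had an unadjusted p under 0.05 (9 higher, 1 lower), beside 10% of all tested genes. The limma-voom fit, whose share of all tested genes is not given here, called 1, Eif2s2. In LEU vs. SD none was called by edgeR or DESeq2, beside 0.553% of all tested genes by edgeR. By edgeR 12 members (20%) had an unadjusted p under 0.05 (4 higher, 8 lower), beside 9.98% of all tested genes. The limma-voom fit called Eif2s2 and Eif3j1, again without a share of all tested genes. These counts depended on MET+LEU replicate 6, which enters the shared estimate of the spread. Without it, Eif2s2, Eif3a, Eif3j1 and Eif5b were called up in both MET vs. SD and LEU vs. SD. Beside them 0.996% and 1.67% of all tested genes were called in these comparisons, although none of the compared libraries had changed. For Eif2s2 the value in MET vs. SD was a log2 fold change of 0.20 ± 0.065 (adjusted p = 0.23) with all libraries and a log2 fold change of 0.20 ± 0.035 (adjusted p = 6.61e-04) without that 1, and in LEU vs. SD it was a log2 fold change of 0.20 ± 0.065 (adjusted p = 0.203) and a log2 fold change of 0.20 ± 0.035 (adjusted p = 2.41e-04). All 6 MET and all 6 LEU libraries were above every SD library for Eif2s2. Eif3j1 showed a log2 fold change of 0.28 ± 0.058 (adjusted p = 0.00462) in MET vs. SD and a log2 fold change of 0.34 ± 0.058 (adjusted p = 2.19e-04) in LEU vs. SD without MET+LEU replicate 6, Eif3a a log2 fold change of 0.16 ± 0.034 (adjusted p = 0.00536) and a log2 fold change of 0.17 ± 0.034 (adjusted p = 0.002), and Eif5b a log2 fold change of 0.17 ± 0.043 (adjusted p = 0.0349) and a log2 fold change of 0.19 ± 0.043 (adjusted p = 0.00855). These comparisons share the SD libraries.

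**Figure D4:**
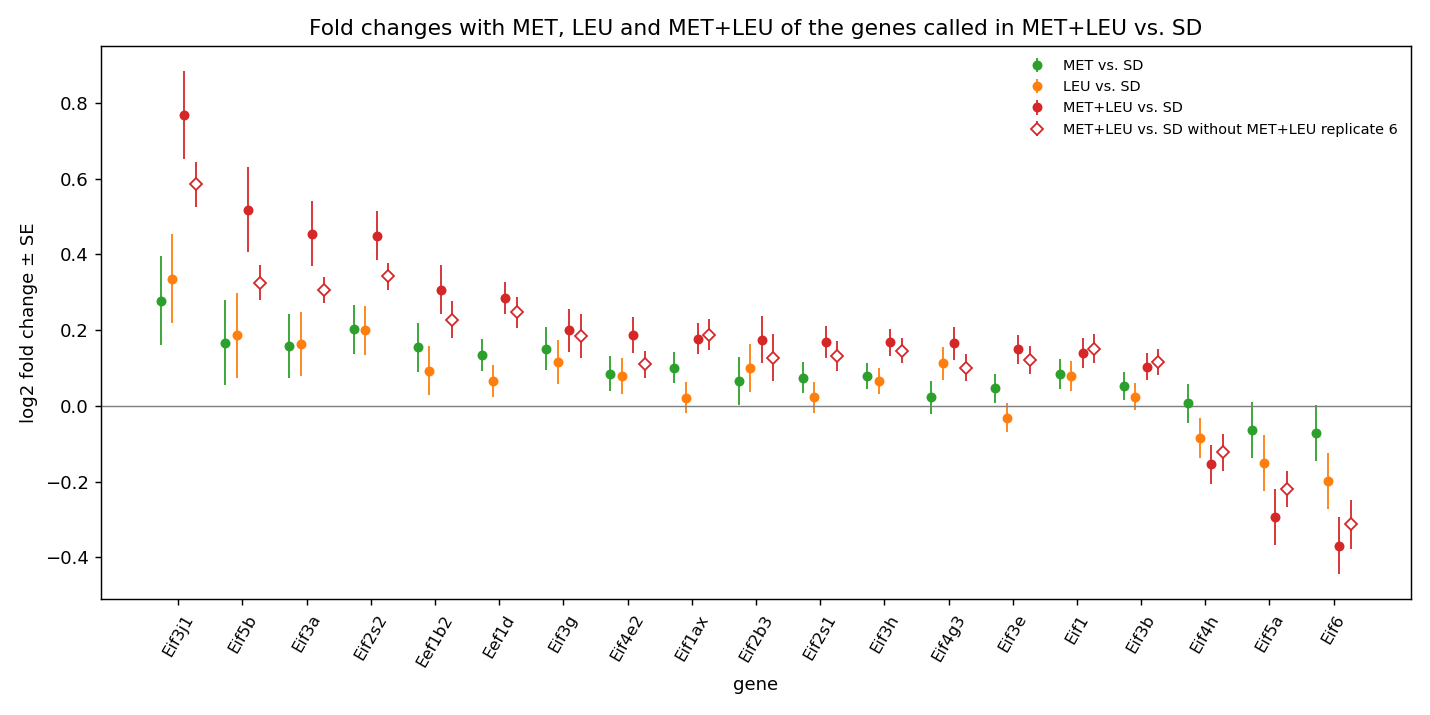
Log2 fold change ± SE against SD of the 19 genes called in MET+LEU vs. SD, with MET (green), LEU (orange), MET+LEU (red) and MET+LEU without its replicate 6 (open diamonds), 6 libraries per group, or 5 for the diamonds. For Eif3j1 the values are 0.28, 0.34, 0.77 and 0.59.

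The interaction between both agents is the departure of MET+LEU from the sum of both single effects on the log2 scale. It was called for none of the 60 genes by edgeR, DESeq2 or limma-voom, beside 0.0503% of all tested genes by edgeR. By edgeR 6 members (10%) had an unadjusted p under 0.05, beside 8.73% of all tested genes. For Eif3j1 the interaction was 0.15 ± 0.16 (adjusted p = 0.848) and for Eif2s2 0.048 ± 0.091 (adjusted p = 0.926).

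Direct comparisons of the combination with each agent gave fewer calls than the comparison with SD. In MET+LEU vs. MET, 6 genes were up and 2 down, beside 5.54% and 3.15% of all tested genes. Those up were Eif3j1 (log2 fold change 0.49 ± 0.11, adjusted p = 0.00785), Eif5b, Eif3a (log2 fold change 0.30 ± 0.084, adjusted p = 0.0277), Eif2s2 (log2 fold change 0.25 ± 0.064, adjusted p = 0.0147), Eef1d and Eif4g3, and those down were Eif6 (log2 fold change -0.30 ± 0.076, adjusted p = 0.0124) and Eif4h. Without MET+LEU replicate 6, 4 were up and 2 down, beside 4.52% of all tested genes in either direction. Eef1d, Eif4g3 and Eif4h were then no longer called while Eif5a was. The log2 fold changes then dropped to 0.30 for Eif3j1, 0.15 for Eif3a and 0.14 for Eif2s2, all still called. In MET+LEU vs. LEU, 12 were up and none down, beside 4.61% and 1.67% of all tested genes. They were Eif3j1 (log2 fold change 0.43 ± 0.11, adjusted p = 0.0233), Eef1akmt2, Eif3a, Eif2s2, Eef1d (log2 fold change 0.22 ± 0.042, adjusted p = 0.00133), Eef1b2, Eif2b5, Eif3e, Eif1ax, Eif1a, Eif2s1 and Eif2s3x. Without replicate 6, 9 remained, beside 2.85% of all tested genes in either direction, and Eif3j1 was at a log2 fold change of 0.25 ± 0.058 (adjusted p = 0.0107). The first count fell to 3 without MET replicate 1 or 3, 4 without MET replicate 2 and 5 without MET replicate 4, and the second to 4 without LEU replicate 3, 5 without LEU replicate 4 and 6 without LEU replicate 2 or 5. Both counts fell when only the compared libraries entered the fit, to 1 (Eif6) in MET+LEU vs. MET and 3 (Eef1d, Eif2b5 and Eif3e) in MET+LEU vs. LEU. Shares of all tested genes are not given here for these fits or for those without a MET or LEU library.

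Against control myotubes, the combination left most of the called genes higher. In MET+LEU vs. 2% HS, 25 genes were up and 5 down, beside 22.1% and 20.3% of all tested genes. Eef1d had the smallest adjusted p, and all its MET+LEU libraries were above all 2% HS libraries (log2 fold change 0.43 ± 0.043, adjusted p = 1.20e-11). Eif3j1 (log2 fold change 0.73 ± 0.12, adjusted p = 9.69e-06), Eif1ax (log2 fold change 0.29 ± 0.041, adjusted p = 1.01e-07) and Eif3b (log2 fold change 0.23 ± 0.036, adjusted p = 1.24e-06) were also up. The 5 genes that were down were Eef1a2, Eef2, Eif5a, Eif4a2 and Eif4g2. Without MET+LEU replicate 6 the counts were 23 up and 8 down, beside 40.5% of all tested genes in either direction. Eif3j1 was then at a log2 fold change of 0.55 ± 0.059 (adjusted p = 3.02e-11) and Eef1d at 0.39 ± 0.040 (adjusted p = 6.06e-12).

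The regulators around these factors were read from lists of partner genes. Their fold changes are given with MET+LEU replicate 6 included. Of 6 eIF2 kinases and phosphatase subunits, 2 were up and 1 down in SD vs. 2% HS. These were Eif2ak3, the endoplasmic reticulum stress kinase PERK (log2 fold change 0.30 ± 0.057, adjusted p = 3.87e-05), Ppp1r15a, the stress-induced phosphatase subunit GADD34 (log2 fold change 0.28 ± 0.050, adjusted p = 2.23e-05), and Eif2ak4, the amino acid sensor GCN2 (log2 fold change -0.15 ± 0.055, adjusted p = 0.0304). Only Eif2ak2, the double-stranded RNA kinase PKR, was called in MET+LEU vs. SD, up (log2 fold change 0.37 ± 0.074, adjusted p = 2.78e-04).

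Of 8 binding proteins and kinases of the cap complex, none was up and 2 down in SD vs. 2% HS, Eif4ebp1 (log2 fold change -0.43 ± 0.055, adjusted p = 1.70e-08), an eIF4E inhibitor, and Mknk2 (log2 fold change -0.33 ± 0.098, adjusted p = 0.013), an eIF4E kinase. The combination against SD gave 2 up and 1 down. Pdcd4, an inhibitor of eIF4A, showed a log2 fold change of 0.44 ± 0.054 (adjusted p = 1.71e-07), Rps6kb1, the S6 kinase, a log2 fold change of 0.27 ± 0.055 (adjusted p = 4.55e-04), and the eIF4E inhibitor Eif4ebp2 a log2 fold change of -0.14 ± 0.042 (adjusted p = 0.017). Pdcd4 was the only gene of all these lists that was called with each agent alone, at a log2 fold change of 0.30 ± 0.054 (adjusted p = 0.00823) in MET vs. SD and a log2 fold change of 0.25 ± 0.054 (adjusted p = 0.0154) in LEU vs. SD.

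Of 10 poly(A) and scanning partners, 1 was up and none down in SD vs. 2% HS, and 5 were up and 1 down in MET+LEU vs. SD. Those up were Denr, a recycling and re-initiation factor (log2 fold change 0.37 ± 0.085, adjusted p = 0.00256), the scanning helicases Dhx29 (log2 fold change 0.24 ± 0.045, adjusted p = 1.65e-04) and Ddx3x (log2 fold change 0.16 ± 0.035, adjusted p = 0.00115), and the poly(A)-binding protein regulators Paip1 and Paip2, which act in opposite directions. Paip2b was down (log2 fold change -0.18 ± 0.062, adjusted p = 0.0413). Ddx3x was also the gene called up in SD vs. 2% HS (log2 fold change 0.18 ± 0.035, adjusted p = 7.43e-05).

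Of 6 termination, recycling and rescue genes, Gspt1, encoding eRF3, was the 1 called in SD vs. 2% HS, up (log2 fold change 0.11 ± 0.035, adjusted p = 0.0143), and Etf1, encoding eRF1, and Abce1, the ribosome splitting factor, were up in MET+LEU vs. SD (log2 fold change 0.13 ± 0.036, adjusted p = 0.00913, and log2 fold change 0.13 ± 0.042, adjusted p = 0.0215). Of 9 enzymes that make hypusine or diphthamide, the modified residues of eIF5A and eEF2, SD vs. 2% HS called none, while MET+LEU vs. SD called 1, Dph2, down (log2 fold change -0.47 ± 0.095, adjusted p = 3.22e-04). Of 9 mitochondrial translation factors, Tufm was up and Gfm1 and Gfm2 were down in SD vs. 2% HS, and Mtif2 and Gfm1 were up in MET+LEU vs. SD, Gfm1 just inside the threshold (log2 fold change 0.11 ± 0.039, adjusted p = 0.05). Without MET+LEU replicate 6, Eif4ebp2, Paip2b, Abce1 and Gfm1 were no longer called in MET+LEU vs. SD. Of the 9 members with known 5' terminal oligopyrimidine mRNAs, whose translation follows mTORC1, 2 were up (Eef1d and Eef1g) and 1 down (Eef1a1) in SD vs. 2% HS, and 4 were up (Eef1b2, Eef1d, Eif3e and Eif3h) and none down in MET+LEU vs. SD.

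Called members also differed in sequence make-up. The GC content was taken from the longest annotated transcript of each gene. Its median was 46.5% for the 16 genes that rose in MET+LEU vs. SD, 55.5% for the 3 that fell and 50.1% for the 41 others. The same order held over all tested genes, with 45.3%, 54.5% and 49.0%. With the GC offset 14 members were up and 2 down in MET+LEU vs. SD, of which 14 were called without it, and the part of base composition in these results was not tested further. The share of all tested genes called with this offset is not given here. Median exonic length was 6159 bases for the genes that rose, 2702 for those that fell and 2891 for the others. Over all tested genes it was 4297, 4497 and 3700 bases, so there the genes that fell were not the shorter ones.

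Promoters of 48 of the 62 genes were found in RefSeq (GRCm38.p6, 250 bases before to 50 after each start). The E-box CACGTG, a palindrome bound by basic helix-loop-helix factors, was in at least 1 promoter of 13 of these genes (27.1%), against 8.09% of 27025 genes with a promoter. The ETS motif CCGGAAGT, searched on both strands, was in 8 of them (16.7%), against 4.31% of all. These background shares cover all genes with a promoter, expressed here or not. Shares over the tested genes alone were not computed, so neither excess can be called particular to translation factors. The E-box stood in 1 of the 12 genes with a promoter that rose in MET+LEU vs. SD, Eif3a, and in both genes with a promoter that fell, Eif4h and Eif5a, and in 10 of the 33 uncalled ones (30.3%). Windows of 30 bases around it are shown for these genes and for Eif4e, with the E-box in capitals, from chr19:60790654-60790683 (Eif3a, minus strand), chr5:134639488-134639517 (Eif4h, minus strand), chr11:69921443-69921472 (Eif5a, minus strand) and chr3:138527192-138527221 (Eif4e, plus strand). A match is a run of letters and not a measured binding site.
Eif3a: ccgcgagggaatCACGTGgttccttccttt
Eif4h: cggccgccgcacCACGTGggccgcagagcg
Eif5a: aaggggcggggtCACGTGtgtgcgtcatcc
Eif4e: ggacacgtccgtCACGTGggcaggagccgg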

How the data were processed

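RNA-seq of 30 C2C12 myotube libraries (5 groups of 6) was read from a deposited table of raw counts per Ensembl gene, with no normalization. The authors depleted ribosomal RNA, prepared stranded libraries and sequenced paired reads of 150 bases, and the submitters' processing notes name cutadapt 1.16, STAR 2.7.6a, featureCounts 1.6.3, DESeq2 1.30.1 and the build GRCm38. How reads matching several genes were counted, and whether counting used strand, is not given in the sources used here. Gene symbols, types, lengths and GC content came from GENCODE M21 (55141 of 55487 genes matched, 346 did not). Each group's replicates are separate libraries, but nothing states that they came from separate cultures, so p-values may measure technical spread only.

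Genes were filtered with filterByExpr (minimum count 10, minimum total 15) and fitted in edgeR 4.0.16 (R 4.3.3) with TMM factors, the robust quasi-likelihood test and a mean per group over all 30 libraries. The standard error is the fold change divided by the square root of F. P-values were adjusted by Benjamini-Hochberg over 15907 genes and called under 0.05. DESeq2 1.42.0, limma-voom (limma 3.58.1), other size factors and filters, a threshold of 0.01, only the groups compared, a replicate block, a GC offset (lowess span 0.3) and leaving out each library were alternatives. The code was tested on simulated counts. Libraries held 12784960 to 19604103 counts, and the biological coefficient of variation was 0.0709. Floors for a count of 0 cover counting error only, while the standard errors include the spread between libraries. TPM divided counts by the summed exon length.

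The members, role groups, partner lists (eIF2 kinases and phosphatase subunits, cap complex binding proteins and kinases, poly(A) and scanning partners, termination and recycling, hypusine and diphthamide enzymes, mitochondrial factors, terminal oligopyrimidine mRNAs) and markers were chosen with earlier results of these data known. Full values were given for the 8 called members with the smallest adjusted p in SD vs. 2% HS, the 8 in MET+LEU vs. SD, every member called in MET vs. SD, LEU vs. SD or the interaction, and Eef1a1, Eef1a2, Eef2, Eef2k, Eif2s1, Eif4e, Eif4g1, Eif4g2, Eif5a, Eif5a2 and Eif6. Other members were named with their values within their role group, and partner genes where called. The 75 pairs of libraries within groups all differed by more than sampling noise (lowest chi-square per gene 2.29), so none was counted as a duplicate.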

Additional observations from a re-analysis of the deposited data

Results flagged for a closer look

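In 7 of 110 sets of 6 libraries (22 genes in 5 groups) the highest or lowest library stood apart from the other 5 by more of the whole range than Dixon's critical value allows, and chance flags about 1 set in 20. In 4 of the 7 the library was MET+LEU replicate 6, the library with the high ribosomal RNA share. There Eif2s2 was at 256 CPM (the others 171 to 183), Eif3a at 757 (451 to 473), Eif3j1 at 77.6 (39.1 to 44.3) and Eif4g3 at 218 (162 to 180). The part of the ribosomal RNA share in these 4 values was not tested.

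The other 3 were lower by less. Eif2s1 was at 84.6 CPM in SD replicate 1 (the others 95.1 to 101) and at 92.1 in LEU replicate 4 (97.6 to 100), and Eif4g2 was at 1199 in 2% HS replicate 1 (1267 to 1297).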

How the results depend on the processing

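The count of called genes kept its size, within 1.5 times, under every alternative in SD vs. 2% HS (11 to 19, 13 as reported) and MET+LEU vs. 2% HS (22 to 32, 30 as reported), and the interaction stayed at 0. With only the groups compared in the fit, fewer or more genes passed, 1 in MET vs. SD, 4 in LEU vs. SD, 9 in MET+LEU vs. SD, 1 in MET+LEU vs. MET and 3 in MET+LEU vs. LEU. With limma-voom MET vs. SD gave 1 and LEU vs. SD gave 2. At an adjusted p under 0.01, a stricter threshold by construction, 1 remained in MET+LEU vs. MET and 3 in MET+LEU vs. LEU, and with all genes above 5 counts in total tested, 5 passed in MET+LEU vs. MET. The cause of the other shifts was not tested. For the alternative fits of this section, shares of all tested genes are given here only without MET+LEU replicate 6. The other counts therefore do not show whether a shift concerned these genes in particular. Leaving out 1 library at a time gave 0 to 4 in MET vs. SD, likewise 0 to 4 in LEU vs. SD (both 4 without MET+LEU replicate 6), 16 to 21 in MET+LEU vs. SD, 3 to 9 in MET+LEU vs. MET and 4 to 13 in MET+LEU vs. LEU. Of the 19 genes called in MET+LEU vs. SD, 14 kept the call without any 1 library and 7 under every alternative run, and of the 13 in SD vs. 2% HS, 11 and 10.

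No called gene changed direction under any alternative. Among uncalled values in MET+LEU vs. SD, the GC offset turned Eif4a2 to -0.064, Eif4a3 to 0.025, Eif4e to -0.026, Eif4g2 to -0.048 and Eif5a2 to -0.038, and upper-quartile normalization turned Eif4g2 to -0.0022. Leaving out 1 library gave -0.016 to 0.055 for Eef1b2, -0.0044 to 0.045 for Eif3a and -0.0035 to 0.048 for Eif4e in SD vs. 2% HS, -0.0021 to 0.033 for Eif4a2, -0.00078 to 0.030 for Eif4g1 and -0.0061 to 0.019 for Eif4g2 in MET+LEU vs. SD, and -0.087 to 0.0040 for Eif4g3 in MET+LEU vs. 2% HS.

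The libraries of a group share replicate numbers with the other groups, and whether these numbers pair libraries was not settled. Same-numbered libraries correlated in their deviations from the group means with a mean r of 0.016 over genes (60 pairs, -0.091 to 0.142). Libraries of different number and group gave a lower mean r of -0.0031, over a wider range (300 pairs, -0.170 to 0.181). Of 30 libraries, 11 correlated best with their own number, and the count expected by chance was not computed. With the replicate block 14 genes passed in SD vs. 2% HS, 0 in MET vs. SD, 0 in LEU vs. SD, 18 in MET+LEU vs. SD, 30 in MET+LEU vs. 2% HS, 9 in MET+LEU vs. MET, 12 in MET+LEU vs. LEU and 0 in the interaction. Depth limits the low genes most, such as Eef1akmt3 with as few as 4 counts in a library.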
